A study of Bos indicus with 5 samples.

Results

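Transcripts of the BCL2, caspase and inhibitor of apoptosis (IAP) families were examined in the ampulla, the part of the oviduct where fertilization takes place. Members were chosen by a rule on gene symbols that used no values, though earlier results of these data were known. Of the 24616 genes in the deposited table, 37 are described. The tissue came from multiparous Nelore cows, all synchronized with a progesterone device, estradiol benzoate, prostaglandin F2α and GnRH. Cows with a large follicle and a large corpus luteum formed the LF/LCL group, in which an extra prostaglandin injection was given when the device went in, and device removal came 42 h ahead of the ovulation-inducing GnRH. Cows with both structures small formed the SF/SCL group, in which device removal came 30 h ahead of it. Ampulla was collected on day 4 and held the whole wall of the organ, so each library mixes epithelium, stroma, muscle and blood vessels. The labels give 2 LF/LCL and 3 SF/SCL libraries, each from a different cow. The study took the highest ranked LF/LCL cows and the lowest ranked SF/SCL cows by follicle and hormone measures. It also left out another LF/LCL library for poor quality.

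Apoptosis is run by a small set of protein families. At the mitochondrion, BAX, BAK1 and BOK form pores in the outer membrane. BCL2 and its relatives hold back BAX and BAK1, while proteins with only a BH3 domain release that hold. Factors that leak through the pores build the apoptosome with APAF1, which activates the initiator caspase CASP9. Death receptors activate CASP8 instead. Both routes end in executioner caspases, which cut cell proteins and free the nuclease that breaks DNA. IAP proteins block active caspases. In the oviduct epithelium, cell turnover follows the ovarian cycle. Most of these proteins are controlled after translation, so a transcript level does not measure cell death.

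The libraries held from 13418278 to 19592174 reads assigned to genes. Values are normalized read counts, which are reads divided by a size factor for each library, and 1 read was worth from 0.777 to 1.17 normalized reads. Levels of different genes are not compared, because no correction for gene length was made. In a principal component analysis, the first component (36.9% of the variance) separated the groups, with scores of -42.4 and -40.6 in LF/LCL. It also placed SF/SCL replicate 3 apart, with a score of 59.5 against 12.1 and 11.4 in the other SF/SCL libraries. Markers of cell types and proliferation differed between the libraries. Markers of smooth muscle (ACTA2, MYH11, TAGLN and others) had a summed level from 66783 to 128925 normalized reads in LF/LCL, against 17974 to 44526 in SF/SCL, and 9 of 12 had an unadjusted p under 0.05, all higher in LF/LCL. Markers of ciliated cells (FOXJ1, SNTN, ARMC3 and others) ran from 72118 to 91023 in LF/LCL, against 105862 to 110209 in SF/SCL, with 12 of 18 lower in LF/LCL. Proliferation markers (MKI67, TOP2A, CCNB1 and others) ran from 1693 to 2611 and from 1391 to 1578, with 6 of 20 higher in LF/LCL. Immune cell markers (PTPRC, CD3E, CD3D and others) overlapped in their sums, from 17100 to 28720 and from 14179 to 25652, with 5 of 21 higher in LF/LCL. CD74 alone had from 10070 to 20480 normalized reads over the libraries, so these sums mostly follow 1 gene. Singly, 11 of the 21 did not overlap between the groups (10 with LF/LCL above), where 30.1% of all genes tested did not. Sums of secretory, stromal and endothelial markers overlapped too. Secretory markers (OVGP1, PAX8, KRT7 and others) ran from 171707 to 191426 and from 167377 to 194275, with 4 of 9 higher and 1 lower in LF/LCL. OVGP1 alone had from 117200 to 147200, and singly 6 of the 9 did not overlap (5 with LF/LCL above). Stromal markers (COL1A1, COL1A2, COL3A1 and others) ran from 37545 to 90842 and from 23457 to 52237, with 0 of 10 at that threshold by limma and 4 by DESeq2. Endothelial markers (CDH5, VWF, KDR and others) ran from 5297 to 8606 and from 6196 to 9095, with 1 of 9 lower in LF/LCL. Red blood cell markers ran from 90 to 528 and from 32 to 256, and 1 of their 5 entries was at 0 in all libraries. No entry of the other marker lists was at 0 in all libraries. The part of these differences in the results that follow was not tested.

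The comparison asked which of these regulators differed between LF/LCL and SF/SCL. Of the 37 members, 34 had a mean value over 5 and were tested with limma on log2(value + 1). With adjustment over all 15815 genes, 0 of the 34 had an adjusted p under 0.05, and limma called 0% of all genes. The smallest adjusted p among them was 0.365, for BCL2L14. Unadjusted p-values under 0.05 were found for 4 of 34, which is 11.8%, against 11.5% of all genes tested. These were BCL2L14 and AIFM2, higher in LF/LCL (2 of 34, background 5.64%), and CASP16 and ENDOG, higher in SF/SCL (2 of 34, background 5.86%). CASP16 had a mean value over 5 only through SF/SCL, so it had to differ to be tested. DESeq2 and the edgeR exact test on recovered reads called 0 of the members each at an adjusted p under 0.05, while they called 2.89% and 2.12% of all genes. The edgeR quasi-likelihood test called 0 members and 0% of all genes. At an unadjusted p under 0.05 there were 3 members by DESeq2, 3 by the exact and 2 by the quasi-likelihood test, where these gave 12.7%, 11% and 11.7% of all genes.

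The 2 LF/LCL values lay entirely above or entirely below the 3 SF/SCL values in 13 of 34 members (38.2%), against 30.1% of all genes tested. LF/LCL lay above in 6 (background 15%) and below in 7 (background 15.1%). CASP16 is among the 7 and was tested only through its SF/SCL values. The median log2 fold change (log2 change) of LF/LCL over SF/SCL was -0.0383 over the members and 0.0054 over all genes tested, with 14 members above 0 and 20 below, where 50.8% of all genes tested were above 0. The median size of the change, whatever its sign, was 0.18 among members and 0.21 among all genes. In whole tissue, fewer cells of a type and less RNA per cell cannot be told apart. Log2 changes are on the log2(value + 1) scale, which understates the change of genes with few reads. Each library of a group came from a different cow, and the labels give no batch. The p-values therefore set the group difference against a spread that mixes cow, tissue content and library handling. The cows were chosen by rank. The plot of fold changes by role shows the members around 0, with CASP16, BCL2L14 and BIRC5 farthest out.

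**Figure D1:**
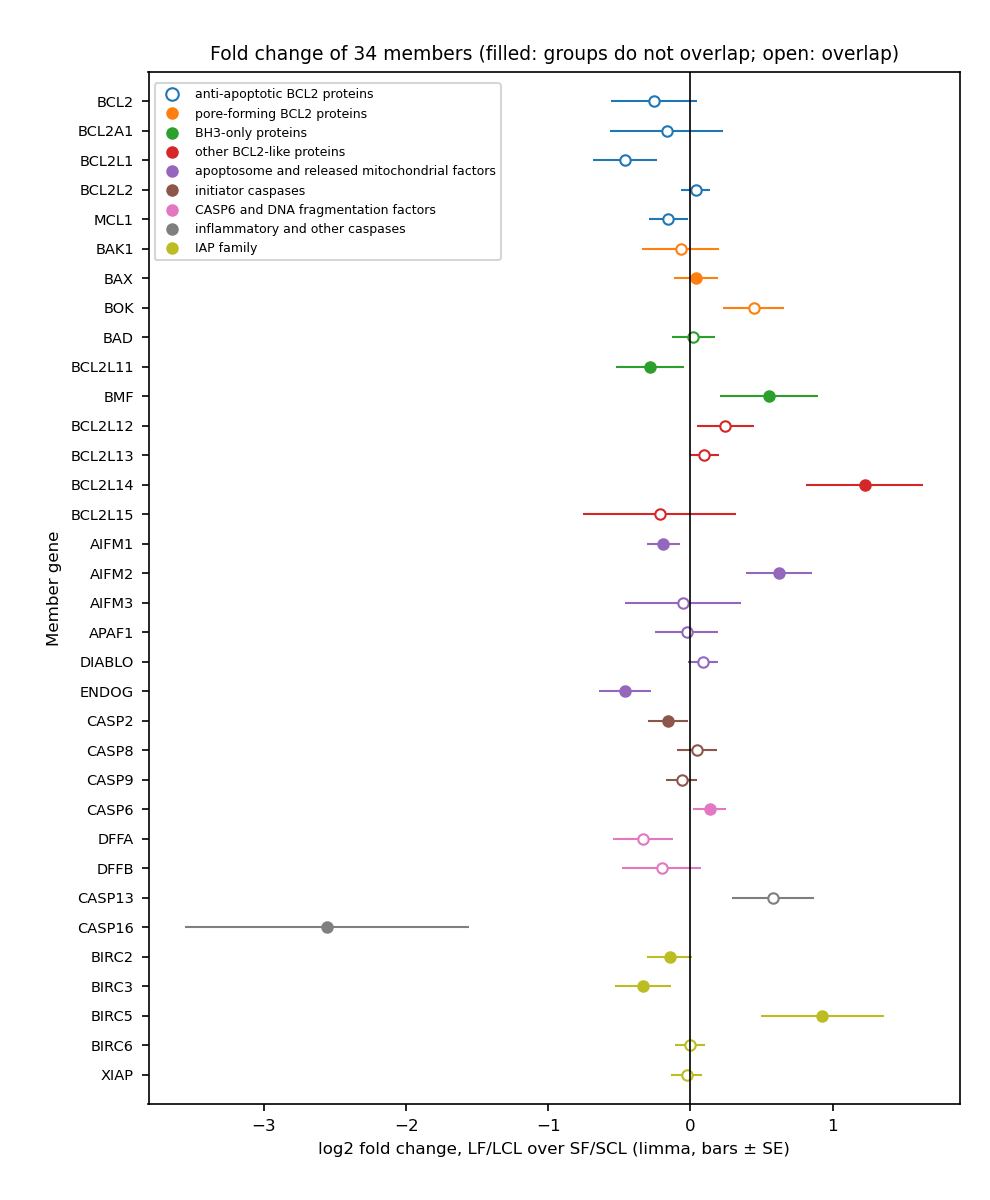
Log2 fold change of LF/LCL over SF/SCL on the log2(value + 1) scale (horizontal axis, limma, bars are ± SE) for the 34 members tested, grouped and coloured by role. Filled points mark the 13 members in which the groups do not overlap, among them BCL2L14, AIFM2 and ENDOG, and open points mark members in which they do, among them all 5 anti-apoptotic BCL2 proteins.

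CASP6, an executioner caspase known for cutting nuclear lamins, had 654.4 and 673.7 normalized reads in LF/LCL against 615.5, 637.3 and 563.4 in SF/SCL. Its values did not overlap between the groups, and LF/LCL lay above SF/SCL by a log2 change of only 0.13 ± 0.12 (SE) at a limma adjusted p of 0.714. That placement was seen in 15% of all genes tested.

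Neither gene of the DNA fragmentation factor had that order. DFFA, the chaperone and inhibitor of the nuclease that breaks DNA, had 396.4 normalized reads in LF/LCL replicate 1 and from 605.4 to 658.9 in the other 4 libraries. The lower LF/LCL mean therefore rested on 1 library. The log2 change of -0.33 ± 0.21 (SE) went to 0.0036 without LF/LCL replicate 1 and to -0.67 without LF/LCL replicate 2. DFFB, the nuclease itself, was at 244.7 in SF/SCL replicate 3 and from 144.3 to 167.5 elsewhere, and its log2 change of -0.20 ± 0.28 (SE) went to 0.0211 without that library.

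**Figure D2:**
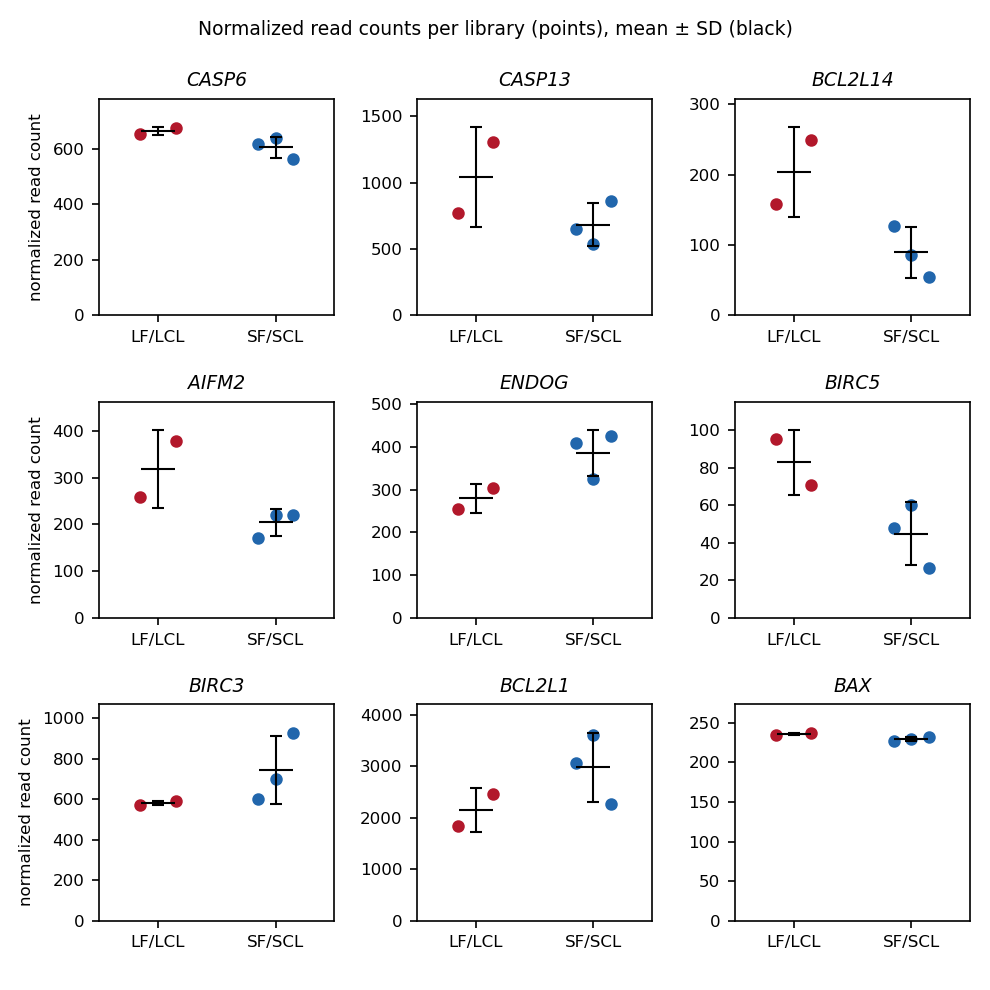
Normalized read counts (vertical axes, each from 0) of 9 members in the 2 LF/LCL and 3 SF/SCL libraries. Points are libraries and black marks are the mean ± SD of a group. CASP6, BCL2L14, AIFM2 and BIRC5 have both LF/LCL libraries above all SF/SCL libraries and ENDOG and BIRC3 have them below, while CASP13 and BCL2L1 overlap and BAX lies between 227.7 and 237.1 in all 5 libraries.

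Initiator caspases showed small differences. CASP8, activated at death receptors, had 1002 and 1063 normalized reads in LF/LCL against 1007, 868.9 and 1143 in SF/SCL. The SF/SCL values enclosed those of LF/LCL. On the log2 scale the change was 0.04 ± 0.14 (SE), with a 95% interval from -0.30 to 0.39. CASP9, activated on the apoptosome, had a log2 change of -0.06 ± 0.11 (SE), with an interval from -0.33 to 0.20. CASP2, which responds to DNA damage and failed cell division, had 287.3 and 275.9 in LF/LCL, against 305.7 to 323.3 in SF/SCL. There was no overlap, and the log2 change of -0.16 ± 0.14 (SE) was small.

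Among the other caspases, CASP13 is an inflammatory caspase of cattle, regarded as the counterpart of human CASP4. It had 772.9 and 1307 normalized reads in LF/LCL against 650.8, 538.6 and 861.8 in SF/SCL. LF/LCL replicate 2 was well above the rest, and LF/LCL replicate 1 lay below SF/SCL replicate 3. This was a log2 change of 0.58 ± 0.29 (SE), and leaving out LF/LCL replicate 2 made it 0.20, where leaving out LF/LCL replicate 1 made it 0.96. With all 5 libraries the unadjusted p by limma was 0.0902 and the adjusted p 0.503. Without SF/SCL replicate 3 the log2 change was 0.76, with an unadjusted p of 0.0411 by limma.

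CASP16 had the fewest reads among the members tested, with 5 and 0 reads in LF/LCL and 22, 11 and 14 reads in SF/SCL. In normalized reads these were 5.86 and 0 against 22.9, 8.55 and 15.03. It passed the filter on low values only through SF/SCL, since its LF/LCL mean was 2.93, so it had to differ to be tested. Its log2 change of -2.56 ± 1.00 (SE) depends on the pseudocount and had a limma adjusted p of 0.418. This change became -3.94 when LF/LCL replicate 1 was left out and -1.17 when LF/LCL replicate 2 was. CASP14, a caspase of the cornifying skin, had 0 reads in every library, where 3 reads would be from 2.33 to 3.52 normalized reads.

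Among members with higher values in LF/LCL, the largest fold change was in a BCL2-like gene outside the main branches. BCL2L14, also called BCL-G, is a BCL2 relative found in epithelia. It had 158.3 and 248.8 normalized reads in LF/LCL against 126.8, 86.3 and 54.7 in SF/SCL. Both groups spread widely, with no overlap, and SF/SCL replicate 3 was the lowest. Its log2 change was 1.22 ± 0.41 (SE), a 2.34-fold higher level in LF/LCL at a limma adjusted p of 0.365. It fell to 0.90 without LF/LCL replicate 2, where the unadjusted p by limma was 0.151, and without SF/SCL replicate 3 the unadjusted p was 0.0447.

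BCL2L13, a receptor for the removal of mitochondria, had the most reads of this class, with 1376 and 1372 in LF/LCL against 1248, 1234 and 1376 in SF/SCL. LF/LCL over SF/SCL gave a log2 change of 0.10 ± 0.10 (SE). BCL2L12 had a log2 change of 0.24 ± 0.20 (SE), and BCL2L15, with 85 reads in all, of -0.22 ± 0.54 (SE).

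Anti-apoptotic BCL2 proteins overlapped between the groups in 5 of 5 members, where 30.1% of all genes tested did not overlap. MCL1, a short-lived protein that protects many cell types, had 3231 and 3533 normalized reads in LF/LCL against 3333, 3703 and 4309 in SF/SCL, a log2 change of -0.15 ± 0.14 (SE). BCL2L1, which encodes BCL-XL, had 1847 and 2459 in LF/LCL against 3058, 3608 and 2274 in SF/SCL. The groups overlapped because LF/LCL replicate 2 lay above SF/SCL replicate 3. The log2 change was -0.46 ± 0.23 (SE) at a limma adjusted p of 0.502. It was -0.64 without SF/SCL replicate 3, where the unadjusted p by limma was 0.0157, against 0.0888 over the 5 libraries. Without SF/SCL replicate 1 it was -0.43 (unadjusted p by limma 0.179), and without SF/SCL replicate 2 it was -0.31 (0.203). Without LF/LCL replicate 2 it was -0.66, and without LF/LCL replicate 1 it was -0.25. BCL2 itself had from 54.2 to 78.6 in LF/LCL, against 71.9 to 86.3 in SF/SCL, with a log2 change of -0.26 ± 0.30 (SE). BCL2L2 (BCL-W) had a log2 change of 0.04 ± 0.10 (SE). BCL2A1, an NF-kB target of white blood cells, had few reads, 164 in all, and a log2 change of -0.17 ± 0.40 (SE). Hence 4 of 5 anti-apoptotic members had a log2 fold change below 0, where 50.8% of all genes tested were above 0. BCL2 and BCL2A1 did not keep that sign in every alternative. Of the 5 members, 0 had an unadjusted p under 0.05 by limma over the 5 libraries.

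Pore-forming members differed in their spread. BOK, whose activity does not need the BH3-only proteins, had 365.9 and 277.8 normalized reads in LF/LCL against 207.9, 281.3 and 218.9 in SF/SCL. SF/SCL replicate 2 lay just above LF/LCL replicate 2, and the log2 change was 0.44 ± 0.22 (SE) at a limma adjusted p of 0.494. Without LF/LCL replicate 1 it was 0.25. BAK1 had from 96.2 to 144.2 in LF/LCL, against 110.5 to 136.2 in SF/SCL, so that the LF/LCL values enclosed those of SF/SCL. BAX had 234.6 and 237.1 in LF/LCL against 227.7, 229.3 and 231.8 in SF/SCL. These groups did not overlap although the log2 change was only 0.04 ± 0.16 (SE), with a 95% interval from -0.34 to 0.42.

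The balance of BCL2 to BAX within a library was taken as the log2 ratio of their values. It was -1.57 and -2.11 in LF/LCL against -1.39, -1.56 and -1.67 in SF/SCL. The means were -1.84 ± 0.38 (SD, n = 2) and -1.54 ± 0.14 (SD, n = 3), and the difference of -0.29 had an exact permutation p of 0.4 (two-sided). With 10 assignments the smallest p possible is 0.1. The log2 ratio of BCL2L1 to BAX was 2.97 and 3.37 in LF/LCL against 3.74, 3.97 and 3.29 in SF/SCL. Here too LF/LCL replicate 2 lay above SF/SCL replicate 3. Its difference of -0.50 had an exact permutation p of 0.3 (two-sided), and this ratio was chosen after the values were seen.

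BH3-only proteins pointed in different directions. BAD, held inactive by survival signals, had 628.6 and 487.8 normalized reads in LF/LCL against 518.8, 561.1 and 558.1 in SF/SCL, with a log2 change of 0.02 ± 0.15 (SE). BMF, which is released from the cytoskeleton under stress, had 92.7 and 60.0 in LF/LCL against 57.2, 42.7 and 52.6 in SF/SCL. LF/LCL lay above SF/SCL, but LF/LCL replicate 1 set most of the difference, and the log2 change of 0.55 ± 0.35 (SE) fell to 0.25 without it. BCL2L11, which encodes BIM, had 80.9 and 97.8 in LF/LCL, against 105.2 to 110.4 in SF/SCL, a log2 change of -0.28 ± 0.24 (SE). HRK, a BH3-only gene of neurons, had 8 reads in all 5 libraries together and was not tested.

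**Figure D3:**
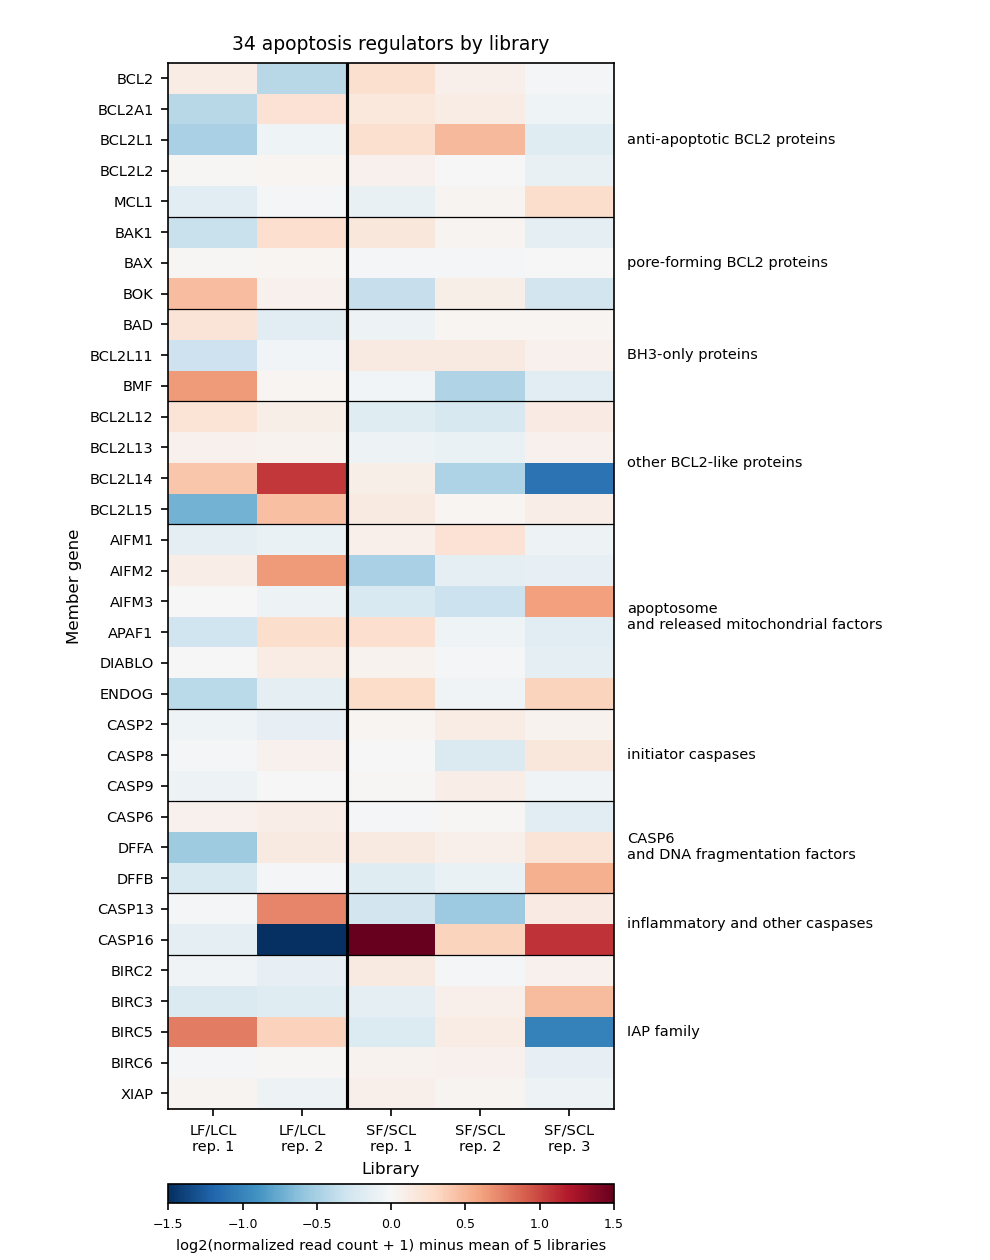
Each row is 1 of the 34 members tested, grouped by role, and each column a library, with LF/LCL to the left of the black line. Colour is log2(normalized read count + 1) minus the member's mean over the 5 libraries, cut off at -1.5 and 1.5 (CASP16 exceeds this). BCL2L14 is red in both LF/LCL libraries and blue in SF/SCL replicates 2 and 3, and most rows of the initiator caspases and of XIAP and BIRC6 are near white.

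Factors of the apoptosome and those released from mitochondria held members with higher values in each group. AIFM2 (FSP1), known today for protecting membranes from lipid peroxidation, had 259.2 and 377.5 normalized reads in LF/LCL against 171.5, 219.9 and 221.1 in SF/SCL. There was no overlap, and LF/LCL replicate 2 stood well above the rest. On the log2 scale the change was 0.62 ± 0.23 (SE), a 1.54-fold higher level in LF/LCL at a limma adjusted p of 0.407. Without LF/LCL replicate 2 it was 0.35. Leaving out an SF/SCL library gave AIFM2 an unadjusted p by limma of 0.0978 (replicate 1), 0.0512 (replicate 2) or 0.0486 (replicate 3). Only the last of these is under 0.05.

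ENDOG, a mitochondrial nuclease, went the other way. It had 255.7 and 303.9 normalized reads in LF/LCL against 408.6, 324.9 and 425.0 in SF/SCL, with LF/LCL replicate 2 and SF/SCL replicate 2 close to each other. This was a log2 change of -0.46 ± 0.18 (SE), a 1.37-fold higher level in SF/SCL at a limma adjusted p of 0.42. Its unadjusted p was under 0.05 in 8 of 16 alternative settings, and without SF/SCL replicate 3 it was 0.111 by limma. AIFM2 and ENDOG each overlap another gene, MACROH2A2 and SPOUT1, in the RefSeq annotation of a different cattle assembly. Reads that fell in such an overlap were not counted if the counting could not separate the genes.

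AIFM1, which serves the respiratory chain and moves to the nucleus in cell death, had 1582 and 1616 normalized reads in LF/LCL against 1828, 2018 and 1645 in SF/SCL. The values did not overlap, and the log2 change was -0.19 ± 0.12 (SE). DIABLO, which frees caspases from IAP proteins, had a log2 change of 0.09 ± 0.11 (SE), and APAF1, the scaffold of the apoptosome, of -0.03 ± 0.22 (SE). AIFM3 was at 75.1 normalized reads in SF/SCL replicate 3 and from 38.9 to 49.3 elsewhere, and its log2 change of -0.05 ± 0.41 (SE) became 0.25 without that library.

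Of the 5 IAP members tested, 3 did not overlap between the groups, where 30.1% of all genes tested did not. BIRC6, a very large ubiquitin ligase that holds back caspases, had 3570 and 3684 normalized reads in LF/LCL against 3774, 3793 and 3332 in SF/SCL, and the group means were 3627 ± 80.6 (SD, n = 2) and 3633 ± 260.6 (SD, n = 3). XIAP, the IAP that binds caspases directly, had a log2 change of -0.03 ± 0.11 (SE), with a 95% interval from -0.29 to 0.23. BIRC2, a ubiquitin ligase of TNF receptor signalling, had 228.7 and 216.8 in LF/LCL, against 233.9 to 258.9 in SF/SCL, a log2 change of -0.15 ± 0.16 (SE). Its neighbour BIRC3, with a like role, had 572.3 and 588.5 in LF/LCL against 599.9, 700.2 and 928.3 in SF/SCL. There was no overlap, SF/SCL replicate 3 was far above the rest, and the log2 change of -0.33 ± 0.20 (SE) was -0.16 without that library.

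BIRC5, which encodes survivin, works in chromosome segregation and is made in dividing cells. It had 95 and 70.7 normalized reads in LF/LCL against 47.8, 59.8 and 26.8 in SF/SCL, with no overlap and SF/SCL replicate 3 lowest. Its log2 change was 0.93 ± 0.44 (SE) at a limma adjusted p of 0.481, with 0.61 when SF/SCL replicate 3 was left out, and the gene was chosen for description after its values were seen. The 20 proliferation markers, which do not include BIRC5, had a median log2 fold change of 0.84, with 19 above 0, and their part in the BIRC5 values was not tested. BIRC7 had 0 reads in every library, with the same limit as CASP14.

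**Figure D4:**
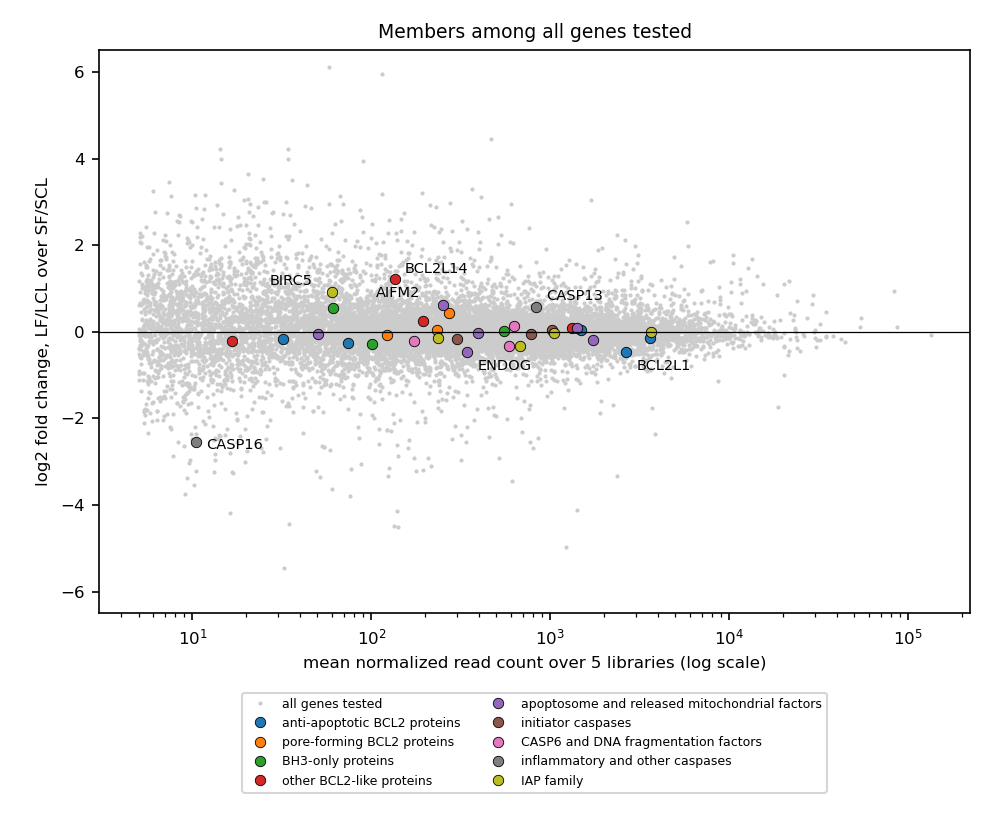
Log2 fold change of LF/LCL over SF/SCL (vertical axis, limma on log2(value + 1)) against the mean normalized read count over the 5 libraries (horizontal axis, log scale). Grey points are the 15815 genes tested and coloured points are the 34 members by role. Members lie within the cloud of all genes, with CASP16 at the low end of the counts and BCL2L14 and BIRC5 highest among the members.

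Other genes of the pathway were taken from 6 lists written by role, and 135 of them were tested. Of these, 0 had an adjusted p under 0.05 by limma and 15 (11.1%) had an unadjusted p under 0.05, near the share of all genes. LF/LCL was higher in 8 of the 15 and lower in 7. IL1B is among the 8 and was tested only through its LF/LCL values. DESeq2 called 5 of the 135 at an adjusted p under 0.05, near its 2.89% of all genes, and these were BAG2, TMBIM6, ELMO1, TP73 and GSDMB.

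In the list of death receptors, ligands and adaptors, 2 of 24 (8.33%) had an unadjusted p under 0.05, against 11.5% of all genes tested. Both were higher in LF/LCL, as were 5.64% of all genes at that threshold. TNFSF10, the death ligand TRAIL, had 651.7 ± 16.1 normalized reads in LF/LCL (SD, n = 2) against 348.4 ± 122.7 in SF/SCL (SD, n = 3). TNFRSF10A, the entry named as its receptor, had 223.6 ± 49.2 and 121.3 ± 51.4. In the list for the mitochondrial step, 3 of 31 (9.68%) were higher and 0 lower in LF/LCL, where 11.5% of all genes tested reached the threshold. BAG2, a cochaperone of HSP70, had 794.5 ± 151.8 and 418.0 ± 80.0, and TMBIM6, a membrane protein of the endoplasmic reticulum known as BAX inhibitor, had 26720 ± 259 and 20530 ± 944. The third was ITM2B, with a log2 change of 0.32 ± 0.13 (SE). TMBIM6 and ITM2B also belong to an apoptosis list that the study drew from genes higher in SF/SCL in the isthmus, while both were higher in LF/LCL here. Of the members, that list holds CASP8 and CASP13, with log2 changes of 0.04 and 0.58 in the ampulla. Neither had an unadjusted p under 0.05 by limma over all libraries. The list came from isthmus libraries that included these cows, and it is no independent evidence of a direction here.

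In the p53 list, 4 of 21 were lower and 0 higher in LF/LCL at an unadjusted p under 0.05, where 5.86% of all genes were lower and 5.64% higher. TP73, a p53 relative also required for multiciliated cells, had 701.6 ± 46.8 normalized reads in LF/LCL (SD, n = 2) against 1181 ± 247 in SF/SCL (SD, n = 3). GADD45G, a growth arrest gene, had 108.5 ± 4.18 and 226.1 ± 73.1, and SESN2, a stress-induced gene, had 113.9 ± 40.1 and 203.9 ± 40.3. Ciliated cell markers were lower in LF/LCL, as given above, and their part in these values was not tested. The list for stress of the endoplasmic reticulum had 0 of 10 at that threshold by limma and 0 by DESeq2. In the list of IAP partners, execution substrates and clearance, ELMO1, an adaptor for engulfment of dying cells, had 1335 ± 34.4 in LF/LCL against 577.9 ± 211.8 in SF/SCL. DNASE2, the nuclease that digests engulfed DNA, was also higher in LF/LCL, while GAS6, a ligand of the engulfment receptors, and LMNB1, a lamin, were lower. Thus 4 of 31 (12.9%) reached the threshold, against 11.5% of all genes tested. In the inflammasome list, 10.5% of the 19 genes reached the threshold, near the share of all genes. The 1 higher gene was IL1B, with 15.8 ± 2.37 in LF/LCL against 3.37 ± 3.60 in SF/SCL. IL1B passed the filter on low values only through LF/LCL, so it had to differ to be tested. The 1 lower gene was GSDMB, of the pore-forming gasdermins, with 188.1 ± 10.6 and 372.4 ± 95.1.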

How the data were processed

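The data were polyA RNA sequencing of ampulla from 5 cows. The authors filtered read pairs with seqyClean, aligned them with TopHat2 2.0.8 and Bowtie2 2.1.0 to the masked cattle UMD assembly, sorted them with SAMtools 0.1.18, counted uniquely mapped reads per Ensembl gene with HTSeq 0.5.4p2 (strand setting not given in the sources used here) and divided by DESeq 1.12.1 size factors. Tools and versions are those of the study's methods and the submitters' processing notes. The deposited unit is this normalized signal, 1 value per gene and library. Overlapping genes and near-identical copies can lose reads in such counting.

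Every nonzero value was a whole multiple of the value of 1 read (within 0.05 reads for 100% of values), so whole reads were recovered for the count tests. Symbols were read from the deposited row names. The RefSeq table of another assembly served for overlaps only, and held 34 of the 37 members, of which 12 overlapped another gene.

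Genes with a mean value over 5 were tested with limma 3.58.1 (trend and robust) on log2(value + 1), without covariates, two-sided, with Benjamini-Hochberg adjustment over all genes and a threshold of 0.05. No batch was given in the labels. SE is that of the limma fit. Alternatives were edgeR 4.0.16 (quasi-likelihood and exact test), DESeq2 1.42.0 and limma-voom on recovered reads, other pseudocounts, filters and scalings, and leaving out each library. The fits were checked on simulated data.

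Of 39 genes that match the symbol rule, 2 are not reported here and enter no count of members, though the fits covered all genes. The members and gene lists were chosen with earlier results of these data known. Values in every library are given for members with an unadjusted p under 0.05 and for the member with the highest mean of each role, and further members were added after seeing the values. Up to 3 genes per direction of a pathway list are named. Marker lists are given as sums and counts, not gene by gene. Symbols of the families without an entry in the table used here were not analysed here.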

Additional observations from a re-analysis of the deposited data

How the results depend on the processing

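No paired analysis was possible because each cow gave 1 ampulla library to 1 group and the labels share no numbers between groups. With an LF/LCL library left out, the lone LF/LCL library is assumed to vary like the SF/SCL libraries. The count of 0 genes called became 457 with DESeq2 and 335 with the edgeR exact test, and was 0 in the other alternatives. The count of members called was 0 in all 16. The 4 members with an unadjusted p under 0.05 became 2 with the quasi-likelihood test and 2 with limma-voom, and from 1 to 5 when each library was left out. Without LF/LCL replicate 2 the 1 was DFFA (log2 fold change -0.67, unadjusted p by limma 0.00786), and without SF/SCL replicate 1 there were 2. The 13 members without overlap ran from 14 to 25 when each library was left out, where fewer samples make overlap rarer. Pseudocount and test cannot change that count. The members' median log2 fold change of -0.0383 was -0.074 with library size scaling, -0.0213 with limma-voom, and from -0.0587 to 0.0341 without each library. The BCL2 to BAX difference kept its sign, from -0.57 to -0.0232 without each library. The 15 pathway genes ran from 10 to 18. The cause of these moves was not tested.

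Of 34 members, 21 kept their sign in every alternative, among them the 4 with an unadjusted p under 0.05, and 13 near 0 or resting on 1 library did not. BAD went to -0.0147 with library size scaling, APAF1 to 0.0018 with limma-voom and BIRC6 to 0.002 with TMM and 0.0021 with limma-voom. Without each library, log2 fold changes ran from -0.36 to 0.22 for BAK1, -0.48 to 0.15 for BCL2A1, -0.80 to 0.37 for BCL2L15, -0.16 to 0.20 for BAD, -0.67 to 0.0036 for DFFA, -0.0566 to 0.14 for CASP8, -0.52 to 0.0076 for BCL2, -0.0087 to 0.0813 for BCL2L2, -0.34 to 0.0211 for DFFB, -0.31 to 0.26 for APAF1, -0.0611 to 0.0323 for BIRC6, -0.22 to 0.25 for AIFM3 and -0.0892 to 0.0356 for XIAP. The depth leaves genes such as BCL2A1, BCL2L15 and CASP16 with few reads and wide errors.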

Other observations

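BAX had one of the smallest spreads over these 5 libraries. Its highest value was 1.04 times its lowest over the 5 libraries, and 0.0949% of all genes tested had a smaller spread. The SD over the libraries was 3.84 normalized reads, below the 15.3 that counting error alone would give at its 1175 reads. A spread this small therefore cannot show how steady the transcript was between cows. Members steady within 1.25 times numbered 10 of 34 (29.4%), against 20.4% of all genes tested, and included XIAP (1.11), BCL2L13 (1.11), CASP9 (1.13), BCL2L2 (1.13), BIRC6 (1.14), CASP2 (1.17), DIABLO (1.18), BIRC2 (1.19) and CASP6 (1.196), where the value in parentheses is the highest over the lowest library. At the other end, 7 of 34 (20.6%) spread at least 2 times or had a library at 0, against 32.4% of all genes.

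The LF/LCL libraries differed from each other in these genes. LF/LCL replicate 1 held the lowest value of 13 of 34 members (38.2%), against 21.5% of all genes tested, and LF/LCL replicate 2 held the highest of 10 (29.4%), against 20.9%. These counts are a description and were not tested.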
